A study of Mus musculus with 9 samples.

Results

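The potassium channel genes of mouse carry symbols that begin with Kcn, and they were followed here in bulk RNA sequencing of brain tissue whose label names the anterior paraventricular thalamic nucleus (aPVT). All rows of the count table whose symbol starts with Kcn were taken. Of 84 such rows, 4 noncoding transcripts were set aside (Kcnq1ot1, Kcnd3os, Kcnmb4os1 and Kcnmb4os2), which left 80 protein-coding members among 18956 symbols in the table. All 80 passed the filter on low counts and were tested.

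All mice were of the BALB/c strain. The first group went through 5 days of social defeat, in which a mouse is exposed to an aggressor, and received (2S,6S)-HNK, a hydroxynorketamine that forms from ketamine in the body (defeat SHNK below). The second group went through the same defeat and received saline (defeat saline). The third was not stressed and received saline (no-stress saline). Each group had 3 libraries. Age, sex, dose, time of dissection and pooling of animals were not given in the sources used here, nor whether each library was a different animal. The p-values therefore speak for the spread of these libraries and may be technical.

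Potassium channels let potassium leave or enter the cell and so set the resting potential, the shape of the action potential and the pattern of firing. Voltage-gated (Kv) subunits open on depolarisation, inward rectifiers (Kir) and tandem-pore (K2P) channels hold the membrane near rest, and calcium-activated channels follow the rise of calcium that firing brings. Auxiliary subunits change how fast the pore subunits inactivate and how many reach the membrane. In thalamic relay neurons these currents shape the switch between tonic and burst firing, and in astrocytes Kir channels take up potassium that neurons release.

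SHNK was compared with saline among defeated mice, defeat saline with no-stress saline, and defeat SHNK with no-stress saline. The first 2 comparisons share the defeat saline libraries, so their values are given side by side and no likeness between them is counted as a result. Levels are read counts relative to the library total scaled by TMM (CPM), fold changes are log2 estimates of edgeR's quasi-likelihood test with their standard error, and a gene is said to rise or fall where its Benjamini-Hochberg adjusted p over all 18194 tested genes was under 0.05. In bulk tissue, fewer cells of a type and less RNA per cell cannot be told apart.

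With SHNK, 5 of the 80 members rose against defeat saline and 3 fell, 10% of the members, where 6.41% of all tested genes changed. That share of all genes was 0.963% without defeat SHNK replicate 3, 1.3% without defeat SHNK replicate 2, 2.01% without defeat saline replicate 2, 3.58% without defeat saline replicate 1 and 3.93% without defeat saline replicate 3. Kcnab1, Kcnip4, Kcnc2, Kcnj3 and Kcnk1 rose, where 2.45% of all tested genes rose, and Kcng4, Kcnma1 and Kcnn4 fell, where 3.96% fell. In defeat saline against no-stress saline, 2 members rose, Kcng4 and Kcnmb1, and 0 fell. That is 2.5% of the members against 1.17% of all tested genes in either direction (1.15% higher and 0.0165% lower), and 2 genes are too few to set the members apart. The share of all genes was 0.219% without defeat saline replicate 2, and 0.274% and 0.389% without no-stress saline replicates 1 and 2. In defeat SHNK against no-stress saline 0 members were called, where 0.0055% of all tested genes were (4.1% without no-stress saline replicate 2, with 2 members lower). The plot of fold changes by subfamily shows the first 2 of these comparisons.

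**Figure D1:**
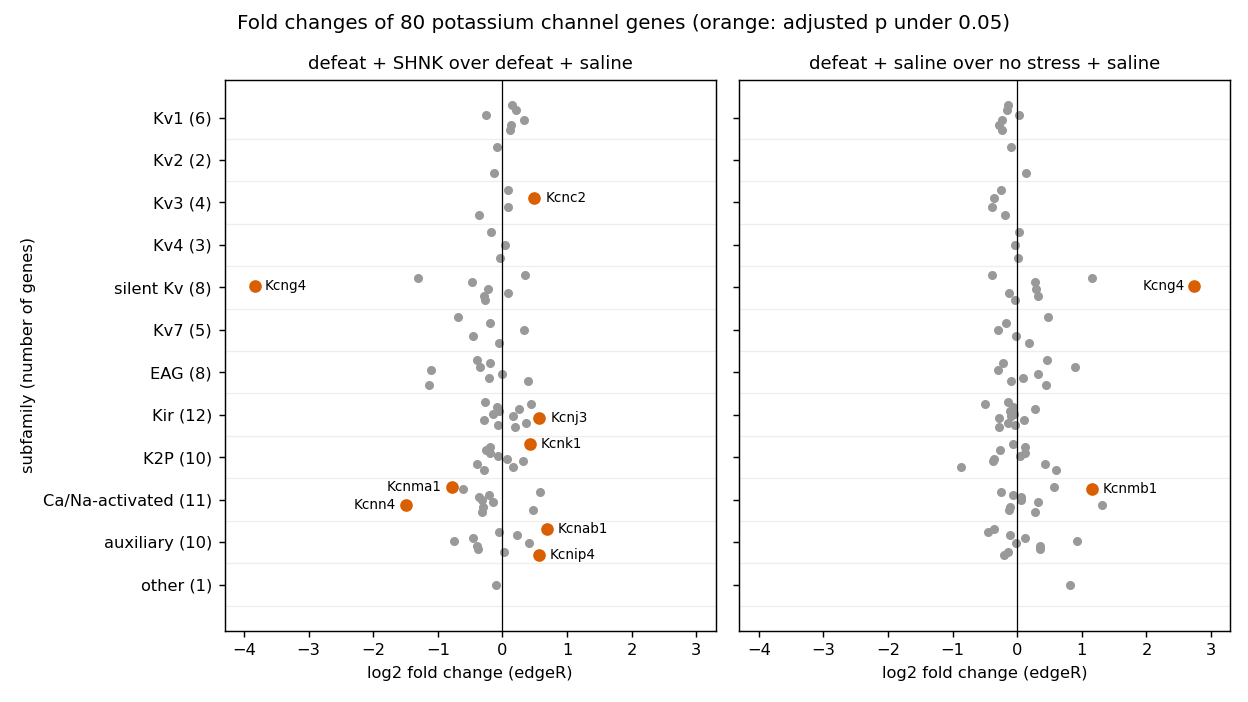
Log2 fold change (edgeR, x axis) of each of the 80 potassium channel genes, 1 point a gene, by subfamily with the number of genes in brackets; the left panel is defeat SHNK over defeat saline, the right panel defeat saline over no-stress saline. Orange points have an adjusted p under 0.05: 5 to the right and 3 to the left of 0 in the left panel, and Kcng4 and Kcnmb1 in the right panel.

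With all 9 libraries, the shift of the members was wider than that of all genes before any threshold. The median size of the log2 fold change, whatever its sign, was 0.28 over the members in SHNK against defeat saline, and 0.19 over all tested genes. It was 0.23 and 0.11 in defeat saline against no-stress saline, but only 0.185 and 0.171 in defeat SHNK against no-stress saline. An unadjusted p under 0.05 was reached by 31 members with SHNK (38.75%; 23.3% of all tested genes) and by 23 in the stress comparison (28.75%; 9.45% of all). Leaving out 1 library moved the count with SHNK between 19 (without defeat SHNK replicate 2) and 32, with 22 without defeat saline replicate 2. The stress count moved between 13 (without no-stress saline replicate 3) and 26, with 15 without defeat saline replicate 2. The matching shares of all genes are not given here. The 3 libraries of each group did not overlap for 30 members with SHNK (37.5%; 30.4% of all tested genes) and for 20 in the stress comparison (25%; 12.9% of all). At the unadjusted threshold with SHNK, 15 members were higher (10.6% of all tested genes were) and 16 lower (12.8% of all). In the stress comparison 11 were higher (6.08% of all) and 12 lower (3.37% of all).

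Total counts ran from 32307869 to 51569143 per library, and the members took 0.244% to 0.287% of them. The tissue label was checked against marker genes. The summed level of 10 markers of thalamic glutamatergic neurons was 4839 to 5318 CPM in defeat SHNK, 4355 to 4855 CPM in defeat saline and 4636 to 5396 CPM in no-stress saline. Markers of the habenula, which borders the aPVT, were present as well and differed between the groups. Of 12 listed habenula markers, 10 were in the table. These summed to 40.0 to 45.6 CPM in defeat SHNK, 229 to 722 CPM in defeat saline and 70.8 to 130 CPM in no-stress saline. All 10 fell with SHNK (3.96% of all tested genes fell). In defeat saline against no-stress saline 9 of 10 rose (1.15% of all rose). Tac2, among them, stood at 0.22 to 0.66 CPM in defeat SHNK, 38.6 to 155 CPM in defeat saline and 4.41 to 20.8 CPM in no-stress saline. Of 8 listed hippocampus markers, 6 were in the table. They summed to 164 to 189, 215 to 263 and 202 to 221 CPM in the same order of groups. Of these 6, 3 fell with SHNK (3.96% of all tested genes fell) and 1 rose in defeat saline (1.15% of all rose). Their part in the channel values was not tested. Defeat saline replicate 2 stood apart with the highest habenula sum, 722 CPM, and values without it are given below for the called genes and for others that it moved. That library was also the highest of the 9 for 16 members (20%, against 12.6% of all tested genes) and the lowest for 18 (10.1% of all). It was not alone in this. No-stress saline replicate 3 was the highest for 19 members (23.75%, against 16.2% of all), and defeat SHNK replicate 3 the lowest for 24 (19.3% of all).

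Per kilobase of the longest coding transcript, Kcnj9 had the highest level of the 80 genes, at 80.8 CPM per kb over the 9 libraries, and it stayed first when the median length over transcripts was used. It encodes GIRK3, a subunit of the G-protein-gated inward rectifiers that open after activation of inhibitory receptors. Kcnip4 (60.2 CPM per kb) and Kcnip1 (57.0 CPM per kb), 2 calcium-binding subunits of Kv4 channels, came next, and they changed places with the median length. Below them the order depended on the length. With the longest transcript Kcnip3 (42.6 CPM per kb), Kcnj10 (40.8 CPM per kb), the main inward rectifier of astrocytes, and Kcnk1 (35.9 CPM per kb), a K2P leak channel, followed. With the median length Kcnab2, a Kv1 beta subunit, stood next at 50.4 CPM per kb (20.3 with the longest) and Kcnip2, another Kv4 subunit, after it at 46.3 (13.4 with the longest). Kcnrg, a regulator of Kv assembly, was the lowest with either length, at 0.10 CPM per kb. In 24 genes the level was under 1 CPM per kb and in 16 it was at least 10, against 19 and 25 genes with the median length.

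Within the subfamilies, Kcnd2 led the Kv4 genes at 20.8 CPM per kb, against 2.90 for Kcnd3 (7.79 with the median length) and 0.96 for Kcnd1. Kcnc2 and Kcnc1, the fast Kv3 subunits, stood at 15.5 and 14.0 CPM per kb, an order that the median length turned round (19.4 and 19.9). Kcnma1, the only pore subunit of the large-conductance calcium-activated (BK) channel, stood at 8.84 CPM per kb with its longest transcript and at 30.6 with the median length, so its place beside Kcnmb4, its neuronal beta subunit (34.4 with either), is not settled. In CPM without length, the median over the members was 13.6, close to the 12.3 of all tested genes. These levels order genes and carry no test.

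**Figure D2:**
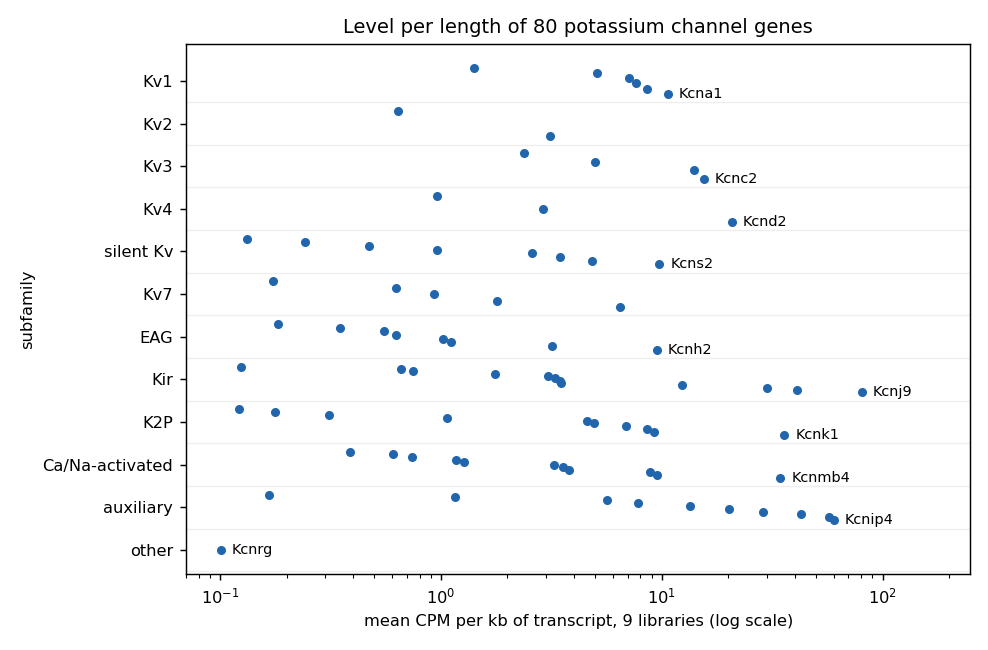
Mean level of each of the 80 genes over the 9 libraries in CPM per kb of the longest coding transcript (x axis, log scale), 1 point a gene, with subfamilies as rows and the highest gene named in 10 of the 12 rows. Kcnj9 lies farthest to the right at 80.8 CPM per kb and Kcnrg farthest to the left at 0.10.

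The promoter windows of 4 called genes are shown, picked for their range of CG content. Each runs from 250 bases before to 50 after a transcription start in RefSeq (GRCm38.p6), 5′ to 3′ on the gene's strand, with CG pairs in capitals. Kcng4 lies at chr8:119635631-119635930 on the minus strand, Kcnma1 at chr14:24004156-24004455 on the minus strand, Kcnn4 at chr7:24370013-24370312 on the plus strand and Kcnj3 at chr2:55435720-55436019 on the plus strand.
Kcng4: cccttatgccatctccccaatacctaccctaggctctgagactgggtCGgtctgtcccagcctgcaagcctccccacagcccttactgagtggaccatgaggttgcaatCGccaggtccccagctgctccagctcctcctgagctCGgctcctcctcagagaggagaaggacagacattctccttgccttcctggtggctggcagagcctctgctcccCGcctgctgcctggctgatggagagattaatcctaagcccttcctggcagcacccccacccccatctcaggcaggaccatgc
Kcnma1: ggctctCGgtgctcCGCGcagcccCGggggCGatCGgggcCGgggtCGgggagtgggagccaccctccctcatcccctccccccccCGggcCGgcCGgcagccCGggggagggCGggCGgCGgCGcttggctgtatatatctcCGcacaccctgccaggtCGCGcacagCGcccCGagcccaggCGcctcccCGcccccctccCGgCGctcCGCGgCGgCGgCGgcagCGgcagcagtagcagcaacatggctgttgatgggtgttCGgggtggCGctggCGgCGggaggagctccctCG
Kcnn4: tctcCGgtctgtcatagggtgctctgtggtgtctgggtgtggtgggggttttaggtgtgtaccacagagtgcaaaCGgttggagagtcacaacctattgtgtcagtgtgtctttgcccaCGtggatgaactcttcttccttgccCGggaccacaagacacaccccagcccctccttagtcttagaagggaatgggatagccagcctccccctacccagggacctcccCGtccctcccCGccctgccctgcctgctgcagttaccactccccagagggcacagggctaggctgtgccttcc
Kcnj3: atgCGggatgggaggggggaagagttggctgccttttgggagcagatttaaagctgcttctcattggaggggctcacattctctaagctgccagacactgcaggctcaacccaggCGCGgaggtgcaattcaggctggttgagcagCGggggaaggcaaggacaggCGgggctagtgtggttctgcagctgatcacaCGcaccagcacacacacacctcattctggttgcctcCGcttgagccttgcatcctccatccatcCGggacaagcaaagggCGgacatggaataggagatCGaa
Kcng4 has 4 CG pairs in this window, Kcnn4 has 6, Kcnj3 has 10 and Kcnma1 has 36. The median over 32851 windows was 7, and 6.23% held at least as many as Kcnma1. The Kcnma1 start thus lies in a CG-rich stretch, while those of Kcng4 and Kcnn4, which moved in the same direction, do not. Among called genes not shown, Kcnmb1 had 1 CG pair, Kcnip4 7 and Kcnk1 10. By window, Kcnc2 had 3 to 6 and Kcnab1 1 to 7. The 4 genes were picked for these values, so their contrast carries no test. RefSeq windows were found for 57 of the 80 members, 81 windows in all, with a median of 9 CG pairs. A search on both strands for TATAAA (a core promoter element), TGACGTCA (the cyclic AMP response element), CACGTG (an E-box) and ATGCAAAT (the octamer read by POU factors) found only CACGTG, in Kcnn4, among these 4 windows. Among the windows of Kcnab1, a called gene not shown here, CACGTG occurred as well, and so did TATAAA. Over all windows TATAAA was in 13.6%, TGACGTCA in 1.79%, CACGTG in 7.15% and ATGCAAAT in 1.74%, and over the 81 windows of the members in 4, 0, 7 and 1.

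Kcng4 (chromosome 8, 119623854 to 119635680, GRCm38.p6) had the largest fold change of the 80 genes in both comparisons. It encodes Kv6.4, a silent subunit that forms no channel alone and joins Kv2 subunits, whose current it alters. Kcng4 stood at 1.75, 1.93 and 1.38 CPM in defeat SHNK, at 13.2, 37.7 and 21.5 CPM in defeat saline and at 3.03, 2.76 and 5.00 CPM in no-stress saline. Every defeat saline library lay above every other library. With SHNK Kcng4 fell by 3.83 ± 0.35 on the log2 scale (adjusted p = 0.000171), a fitted fold of 14.2, with means of 1.69 ± 0.28 CPM in defeat SHNK and 24.1 ± 12.4 CPM in defeat saline (SD, n = 3 each). In defeat saline against no-stress saline it rose by 2.74 ± 0.32 (adjusted p = 0.0030), with a no-stress mean of 3.60 ± 1.23 CPM (SD, n = 3). Without defeat saline replicate 2 the values were -3.35 ± 0.28 (adjusted p = 0.000126) and 2.26 ± 0.26 (adjusted p = 0.0110). The habenula marker sums beside it were 45.6, 40.0 and 45.6 CPM in defeat SHNK, 229, 722 and 429 CPM in defeat saline and 73.4, 70.8 and 130 CPM in no-stress saline, in the same order of replicates. Within defeat saline and within no-stress saline, the library with most Kcng4 was the library with most habenula markers, but not within defeat SHNK. The part of the habenula markers in the Kcng4 result was not tested.

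Kcnb2 (Kv2.2), a pore partner, did not pass at 9.26 ± 0.57 CPM in defeat SHNK, 10.1 ± 0.43 CPM in defeat saline and 9.22 ± 1.44 CPM in no-stress saline (SD, n = 3 each). Of the 8 silent Kv genes, Kcng4 alone was called. Kcng1, another silent subunit, missed the threshold at 1.07, 0.50 and 0.35 CPM in defeat SHNK, 1.19, 1.84 and 1.83 CPM in defeat saline and 0.90, 0.53 and 0.71 CPM in no-stress saline. Its log2 fold change was -1.31 ± 0.37 with SHNK (adjusted p = 0.0528) and 1.16 ± 0.38 in the stress comparison (adjusted p = 0.218), on 13 to 86 reads per library. DESeq2 and limma called the first of these, and without defeat saline replicate 2 it was -1.21 ± 0.43 (adjusted p = 0.147). Kcns2, the silent subunit with the highest level per longest transcript, though not by the median length, was at 53.8 ± 2.66 CPM in defeat SHNK, 50.6 ± 3.98 CPM in defeat saline and 55.4 ± 3.69 CPM in no-stress saline.

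Among the 11 calcium- and sodium-activated genes, Kcnma1 and Kcnn4 fell with SHNK and Kcnmb1 rose in defeat saline. With SHNK 9 of the 11 log2 fold changes lay below 0, with a median of -0.32 against -0.01 over all tested genes. This lean was not theirs alone. Of all 80 members 50 lay below 0, with a median of -0.11. So did 7 of 8 EAG-family (Kcnh) and 6 of 8 silent Kv genes, while 5 of 6 Kv1 genes lay above 0. Kcnma1 (chromosome 14, 23292288 to 24005110) encodes the BK pore, which repolarises the action potential. It stood at 82.1, 87.5 and 78.9 CPM in defeat SHNK, at 108, 185 and 133 CPM in defeat saline and at 86.3, 95.2 and 106 CPM in no-stress saline. All 3 defeat saline libraries were above all others, and replicate 2 was the highest. Kcnma1 fell by 0.78 ± 0.15 with SHNK (adjusted p = 0.0100), and without defeat saline replicate 2 by 0.54 ± 0.11 (adjusted p = 0.0336). Without defeat SHNK replicate 3 it missed the threshold (adjusted p = 0.0705). In defeat saline against no-stress saline its log2 fold change was 0.57 ± 0.15 and did not pass in edgeR (adjusted p = 0.0928). DESeq2 called it higher (adjusted p = 0.0109), as did edgeR without defeat saline replicate 1 (0.74, adjusted p = 0.00983), and it was 0.34 ± 0.11 without replicate 2.

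Lrrc55, a leucine-rich gamma subunit of the BK channel that lets it open at lower voltage, carries no Kcn symbol and was taken from a list of channel partners. It stood at 8.20, 7.58 and 8.96 CPM in defeat SHNK, at 24.98, 70.4 and 35.1 CPM in defeat saline and at 12.2, 10.3 and 16.4 CPM in no-stress saline. Here too the defeat saline libraries lay above all others, with replicate 2 the highest. Lrrc55 fell by 2.40 ± 0.30 with SHNK (adjusted p = 0.000728) and rose by 1.74 ± 0.29 in defeat saline (adjusted p = 0.00970). Without replicate 2 of defeat saline the values were -1.86 ± 0.19 (adjusted p = 0.000253) and 1.21 ± 0.19 (adjusted p = 0.0267). Without no-stress saline replicate 1 or 2 the stress call was lost (adjusted p = 0.0621 and 0.0611). The plot beside the habenula markers sets Kcng4, Kcnma1 and Lrrc55 against the marker sum. The part of the habenula markers in the Kcnma1 and Lrrc55 results was not tested.

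**Figure D3:**
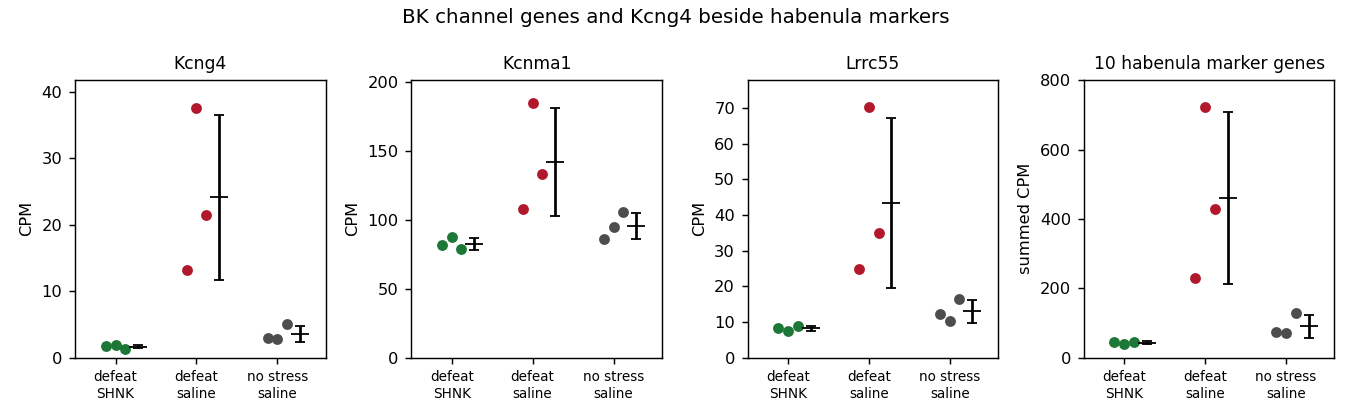
CPM of Kcng4, Kcnma1 and Lrrc55 and the summed CPM of 10 habenula marker genes (y axes, linear from 0) in each library of the 3 groups; points are libraries in the order of their replicate numbers and bars the mean with its SD. In each panel the 3 defeat saline libraries lie highest and replicate 2 is the highest of them, at 37.7, 185, 70.4 and 722 CPM.

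Kcnmb1 (chromosome 11, 33962955 to 33973641) encodes the BK beta subunit known from smooth muscle. It stood at 2.80, 1.73 and 2.61 CPM in defeat SHNK, at 3.08, 4.18 and 3.63 CPM in defeat saline and at 1.71, 1.66 and 1.52 CPM in no-stress saline. It rose by 1.15 ± 0.23 in defeat saline against no-stress saline (adjusted p = 0.0251), and with SHNK its log2 fold change was -0.61 ± 0.22 and did not pass (adjusted p = 0.117). The rise missed the threshold without any 1 of the no-stress saline libraries (adjusted p = 0.0812, 0.0886 and 0.0818 without replicates 1, 2 and 3) and without defeat saline replicate 2 or 3 (adjusted p = 0.157 and 0.0654). Kcnmb4, the neuronal beta subunit with the higher level per length, did not pass at 42.1 ± 1.90 CPM in defeat SHNK, 48.6 ± 5.83 CPM in defeat saline and 50.6 ± 9.10 CPM in no-stress saline. The table also lists 2 opposite-strand transcripts named after it, and whether counting used strand was not given in the sources used here.

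Kcnn4 (chromosome 7, 24369826 to 24385212) encodes the intermediate-conductance calcium-activated channel and was thinly covered. It stood at 1.05, 0.86 and 0.76 CPM in defeat SHNK, at 2.19, 2.44 and 2.90 CPM in defeat saline and at 0.77, 0.72 and 1.52 CPM in no-stress saline, on 23 to 114 reads per library. All 3 defeat saline libraries were above all others. Kcnn4 fell by 1.49 ± 0.30 with SHNK (adjusted p = 0.0127), and in defeat saline against no-stress saline its log2 fold change was 1.31 ± 0.30 at an adjusted p of 0.0509 in edgeR, and it was called by DESeq2 and limma. The fall missed the threshold without defeat SHNK replicate 2 or 3 (adjusted p = 0.0627 and 0.0801), and passed it without defeat saline replicate 2 (adjusted p = 0.0424). Kcnn2, the small-conductance channel with the highest level per length of the Kcnn genes, averaged 30.4 ± 1.44 CPM in defeat SHNK, 38.0 ± 6.86 CPM in defeat saline and 36.6 ± 2.88 CPM in no-stress saline, and did not pass with SHNK (log2 fold change -0.32 ± 0.12, adjusted p = 0.129). Leaving out 1 library moved that value between -0.46 (without defeat saline replicate 3, where it was called lower, adjusted p = 0.0328) and -0.21 (without defeat saline replicate 1), and it was -0.29 ± 0.14 without defeat saline replicate 2.

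The 2 members of the 11 that lay above 0 with SHNK were Kcnmb2, an inactivating BK beta subunit, and Kcnt2, a sodium-activated pore. Kcnmb2 averaged 4.54 ± 0.31 CPM in defeat SHNK, 3.03 ± 0.77 CPM in defeat saline and 3.62 ± 0.28 CPM in no-stress saline, and Kcnt2 8.11 ± 1.21, 5.84 ± 0.22 and 6.37 ± 0.89 CPM. Neither passed in edgeR (log2 fold changes 0.58 ± 0.20 and 0.47 ± 0.16, adjusted p = 0.0965 and 0.0922), and DESeq2 called both higher (adjusted p = 0.0426 and 0.0367).

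Kcnab1 (chromosome 3, 64949212 to 65378225) encodes a cytoplasmic beta subunit that gives Kv1 channels fast inactivation. It stood at 105, 116 and 125 CPM in defeat SHNK, at 85.1, 65.1 and 65.3 CPM in defeat saline and at 91.0, 87.2 and 99.4 CPM in no-stress saline. All SHNK libraries were above all saline libraries, and all defeat saline libraries were below the rest. Kcnab1 rose by 0.68 ± 0.11 with SHNK (adjusted p = 0.00496), the largest rise among the members, and kept the call without defeat saline replicate 2 (0.62 ± 0.12, adjusted p = 0.0281). In defeat saline against no-stress saline its log2 fold change was -0.36 ± 0.11 (adjusted p = 0.173), and it was called lower without defeat saline replicate 1 (-0.50, adjusted p = 0.0225). Of the 6 Kv1 pore genes it partners, 0 passed. Kcna4, an inactivating Kv1 pore, came nearest at 37.7 ± 1.34 CPM in defeat SHNK, 29.8 ± 2.55 CPM in defeat saline and 34.9 ± 3.92 CPM in no-stress saline (SHNK log2 fold change 0.34 ± 0.10, adjusted p = 0.0647), and was called by DESeq2. Kcna1, the highest Kv1 gene per longest transcript, though not by the median length, averaged 44.6 ± 2.90 CPM in defeat SHNK, 40.1 ± 7.30 CPM in defeat saline and 44.1 ± 2.56 CPM in no-stress saline.

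Kcnip4 (chromosome 5, 48389503 to 49525122) encodes KChIP4, a calcium-binding subunit that slows inactivation of Kv4 channels. It stood at 156, 172 and 202 CPM in defeat SHNK, at 124, 124 and 109 CPM in defeat saline and at 148, 128 and 135 CPM in no-stress saline, with all SHNK libraries above the rest. Kcnip4 rose by 0.57 ± 0.10 with SHNK (adjusted p = 0.00743), and by 0.60 ± 0.12 without defeat saline replicate 2 (adjusted p = 0.0274). Its stress log2 fold change of -0.20 ± 0.10 did not pass (adjusted p = 0.589). Kcnip1, another KChIP and nearly as high per length, lay the other way: 120, 114 and 123 CPM in defeat SHNK, 134, 194 and 139 CPM in defeat saline and 119, 124 and 124 CPM in no-stress saline. Its log2 fold change of -0.39 ± 0.12 with SHNK did not pass in edgeR (adjusted p = 0.0616), and it was -0.20 ± 0.086 without defeat saline replicate 2. It was called lower by DESeq2 (adjusted p = 0.0243) and by edgeR without defeat saline replicate 1 (-0.49, adjusted p = 0.0395). The pore they serve, Kcnd2 (Kv4.2), averaged 109 ± 5.24 CPM in defeat SHNK, 105 ± 10.3 CPM in defeat saline and 108 ± 1.89 CPM in no-stress saline, and none of the 3 Kv4 genes reached an unadjusted p under 0.05 in any comparison.

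Kcnc2 (chromosome 10, 112269898 to 112466304) encodes Kv3.2, a fast-closing channel that lets neurons fire at high rate. It stood at 86.1, 92.9 and 89.4 CPM in defeat SHNK, at 67.1, 57.3 and 66.1 CPM in defeat saline and at 85.4, 77.9 and 80.7 CPM in no-stress saline. The defeat saline libraries were below all others. Kcnc2 rose by 0.49 ± 0.085 with SHNK (adjusted p = 0.00633), and by 0.43 ± 0.092 without defeat saline replicate 2 (adjusted p = 0.0369). In defeat saline against no-stress saline its log2 fold change was -0.36 ± 0.085 (adjusted p = 0.0627), which passed in DESeq2's Wald test (adjusted p = 0.00925) and not in edgeR. Kcnc1 (Kv3.1) averaged 107 ± 4.92 CPM in defeat SHNK, 99.9 ± 18.2 CPM in defeat saline and 119 ± 6.96 CPM in no-stress saline and did not pass, with the lowest value, 79.9 CPM, in defeat saline replicate 2.

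**Figure D4:**
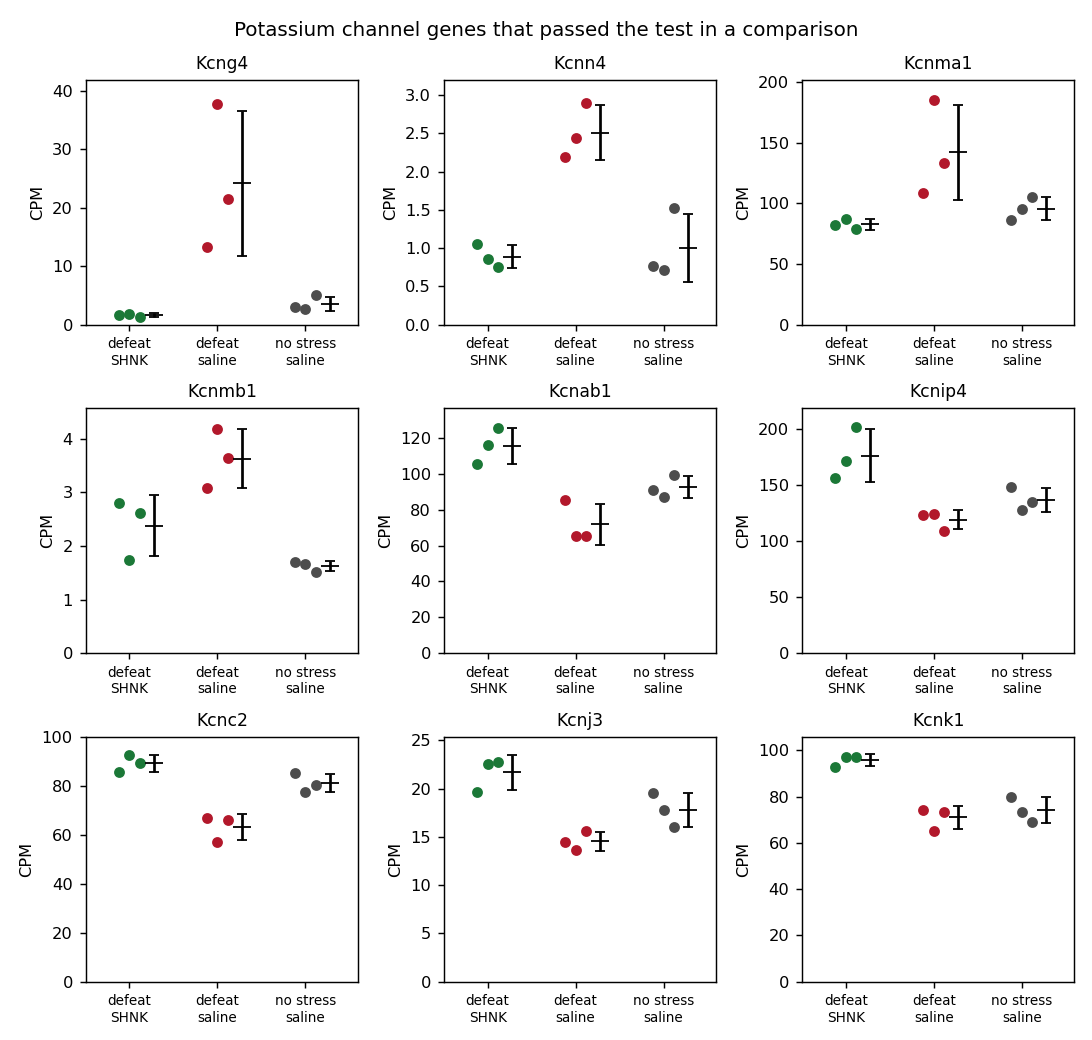
CPM (y axes, linear from 0) of the 9 potassium channel genes called in a comparison, in each library of the 3 groups; points are libraries in the order of their replicate numbers and bars the mean with its SD. Kcng4, Kcnn4, Kcnma1 and Kcnmb1 are highest in defeat saline, and Kcnab1, Kcnip4, Kcnc2, Kcnj3 and Kcnk1 are highest in defeat SHNK.

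The 12 Kir genes held 1 call, Kcnj3 (chromosome 2, 55411798 to 55598145), which encodes GIRK1, the subunit most G-protein-gated channels of neurons contain. It stood at 19.6, 22.6 and 22.8 CPM in defeat SHNK, at 14.5, 13.6 and 15.6 CPM in defeat saline and at 19.5, 17.8 and 16.1 CPM in no-stress saline. Each SHNK library was above every saline library. Kcnj3 rose by 0.57 ± 0.11 with SHNK (adjusted p = 0.0115). The call was lost without defeat saline replicate 2 (0.53 ± 0.13, adjusted p = 0.0551) and without SHNK replicate 2 or 3, the adjusted p reaching 0.0678. Its GIRK partners did not pass with SHNK. Kcnj6 (GIRK2) averaged 14.4 ± 1.05 CPM in defeat SHNK, 11.2 ± 1.97 CPM in defeat saline and 12.4 ± 1.20 CPM in no-stress saline (0.37 ± 0.14, adjusted p = 0.133). Kcnj9 (GIRK3), the highest of all members per length, averaged 318 ± 5.83 CPM in defeat SHNK, 278 ± 35.5 CPM in defeat saline and 339 ± 29.4 CPM in no-stress saline (0.19 ± 0.10, adjusted p = 0.245).

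Other Kir genes serve glia, epithelium and metabolic sensing. Kcnj10 (Kir4.1), which clears potassium into astrocytes, stood at 189, 188 and 184 CPM in defeat SHNK, at 267, 204 and 207 CPM in defeat saline and at 265, 233 and 250 CPM in no-stress saline. Its SHNK libraries were the lowest 3 of the 9, and it did not pass against defeat saline (-0.27 ± 0.10, adjusted p = 0.116) or no-stress saline (-0.42 ± 0.10, adjusted p = 0.0845). Against defeat saline the value ran from -0.34 without defeat saline replicate 2 to -0.14 without replicate 1. Against no-stress saline it was called lower by DESeq2 (adjusted p = 0.00931) and without no-stress saline replicate 2 (-0.46, adjusted p = 0.0376). Beside it, 7 of 10 astrocyte markers fell with SHNK (3.96% of all tested genes fell), Aqp4 and Gfap among them. In defeat saline against no-stress saline only these 2 rose (1.15% of all rose), and Kcnj10 had a log2 fold change of -0.14 (adjusted p = 0.794). The 10 markers summed to 3774 to 4031 CPM in defeat SHNK, 4294 to 5528 CPM in defeat saline and 4842 to 4989 CPM in no-stress saline. The part of these markers in the Kcnj10 values was not tested. Kcnj11 (Kir6.2), the pore of ATP-sensitive channels, averaged 5.96 ± 0.30 CPM in defeat SHNK, 4.39 ± 0.58 CPM in defeat saline and 6.21 ± 0.73 CPM in no-stress saline, without passing (0.44 ± 0.16 with SHNK, adjusted p = 0.117; -0.50 ± 0.16 in the stress comparison, adjusted p = 0.216). Kcnj13 (Kir7.1) and Kcne2, both known from the choroid plexus, were near the floor of the table at 1.12 ± 0.25 and 0.24 ± 0.03 CPM in defeat SHNK, 0.93 ± 0.48 and 0.40 ± 0.15 CPM in defeat saline and 0.79 ± 0.47 and 0.21 ± 0.05 CPM in no-stress saline.

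Of the 10 K2P genes, Kcnk1 (chromosome 8, 125993655 to 126030685) was called. It encodes TWIK1, a leak channel of neurons and astrocytes, and stood at 92.6, 97.2 and 97.2 CPM in defeat SHNK, at 74.3, 65.1 and 73.5 CPM in defeat saline and at 79.95, 73.5 and 69.0 CPM in no-stress saline. The SHNK libraries were above all saline libraries, which overlapped each other. Kcnk1 rose by 0.43 ± 0.086 with SHNK (adjusted p = 0.0124). The call was lost without defeat saline replicate 2 (0.37 ± 0.095, adjusted p = 0.0633) and without SHNK replicate 2 or 3. In the stress comparison its log2 fold change was -0.063 ± 0.086.

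The acid-sensitive K2P channels that carry leak current in thalamic relay neurons did not pass. Kcnk3 (TASK1) averaged 33.1 ± 1.66 CPM in defeat SHNK, 31.7 ± 5.09 CPM in defeat saline and 40.5 ± 12.02 CPM in no-stress saline. Kcnk9 (TASK3) averaged 2.15 ± 0.66 CPM in defeat SHNK, 2.62 ± 0.48 CPM in defeat saline and 1.74 ± 0.38 CPM in no-stress saline. Kcnk6 (TWIK2) had the lowest stress estimate of the 80 genes, -0.87 ± 0.24, at 1.08 ± 0.13 CPM in defeat SHNK, 0.97 ± 0.13 CPM in defeat saline and 1.76 ± 0.09 CPM in no-stress saline, and did not pass either (adjusted p = 0.124).

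None of the 5 Kv7 and 8 EAG-family genes was called by edgeR in any of the 3 comparisons, though 1 and 3 of them had an unadjusted p under 0.05 with SHNK, and DESeq2 called Kcnq3 and Kcnh8 there. Kcnq3 is a subunit of the M-channel, a slow brake on repeated firing. It averaged 22.8 ± 2.15 CPM in defeat SHNK, 18.2 ± 0.59 CPM in defeat saline and 22.4 ± 1.54 CPM in no-stress saline (0.33 ± 0.10 with SHNK, adjusted p = 0.0752). Kcnh8, of the ELK branch, stood at 1.56, 1.29 and 1.60 CPM in defeat SHNK, at 2.27, 5.42 and 2.03 CPM in defeat saline and at 2.57, 2.57 and 2.04 CPM in no-stress saline. Its log2 fold change with SHNK of -1.13 ± 0.33 did not pass (adjusted p = 0.0551), and it was -0.54 ± 0.25 without defeat saline replicate 2, which stood at 5.42 CPM. It was called lower without defeat saline replicate 1 or 3 (adjusted p = 0.0475 and 0.0351). Kcnh2, the ERG channel with the highest level per length of its family, averaged 34.4 ± 4.60 CPM in defeat SHNK, 39.5 ± 3.58 CPM in defeat saline and 46.1 ± 8.56 CPM in no-stress saline.

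Of 26 listed partners and regulators outside the Kcn symbols, 24 were in the table. With SHNK 3 rose, among them Calm2 and Vapa, where 2.45% of all tested genes rose, and 1 fell, Lrrc55, where 3.96% fell. In defeat saline against no-stress saline Lrrc55 rose and 0 fell, where 1.15% of all rose and 0.0165% fell. These genes are too few to set the list apart. Calm2 encodes calmodulin, the calcium sensor of the small-conductance and Kv7 channels. It averaged 4723 ± 724 CPM in defeat SHNK, 3266 ± 84.2 CPM in defeat saline and 3565 ± 287 CPM in no-stress saline, and rose by 0.53 ± 0.10 (adjusted p = 0.00934), and by 0.51 ± 0.12 without defeat saline replicate 2 (adjusted p = 0.0447). Vapa, a membrane protein of the endoplasmic reticulum that anchors Kv2 channels at contact sites, rose by 0.37 ± 0.083 (adjusted p = 0.0203), a call lost without defeat saline replicate 2 (adjusted p = 0.0635). The other 20 did not pass in either comparison, among them Dpp6 and Dpp10, the transmembrane partners of Kv4, and Amigo1, a partner of Kv2.

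The 5 members that rose with SHNK did so beside markers of thalamic glutamatergic neurons. Of these 10 markers 5 rose (Lef1, Ntng1, Rora, Prkcd and Necab1), where 2.45% of all tested genes rose. In the same comparison 0 of them fell, where 3.96% of all fell. Calb2, also on this list, lay the other way without passing (-0.19 ± 0.12, adjusted p = 0.351). In the stress comparison 0 of these 10 were called, where 1.17% of all tested genes were. The 10 ependymal markers, from the lining of the ventricle, summed to 97.4 to 146 CPM in defeat SHNK. They summed to 169 to 255 CPM in defeat saline and 88.7 to 106 CPM in no-stress saline. Of these 10, 6 fell with SHNK (3.96% of all tested genes fell) and 8 rose in defeat saline (1.15% of all rose). No marker was at 0 in a library, since the table holds only symbols with a count of at least 1 throughout. The part of the thalamic and ependymal markers in the values of the channel genes was not tested.

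In defeat SHNK against no-stress saline, where 0 members were called by edgeR, 19 reached an unadjusted p under 0.05 (23.75%; 18.3% of all tested genes). Of these, 6 were higher (7.31% of all) and 13 lower (11% of all). Without no-stress saline replicate 3, 9 members reached that threshold. The groups did not overlap for 20 (25%; 21.3% of all). DESeq2 called 8 members, Kcnip4 and Kcnk1 higher and 6 lower, among them Kcnc4, Kcnh2, Kcnj10, Kcnk12 and Kcnt1. That is 10% of the members, where DESeq2 called 5.46% of all tested genes, and limma called 0 members. The smallest adjusted p among the members was that of Kcnk1 (0.0835), with a log2 fold change of 0.37 ± 0.086. Kcnip4 stood at 0.37 ± 0.10 (adjusted p = 0.0978). Kcng4, the gene with the largest fold change in the other two comparisons, had a log2 fold change of -1.09 ± 0.35 (adjusted p = 0.131), its 3 SHNK libraries lying below its 3 no-stress libraries. Kcnma1 and Kcnc2 had -0.21 ± 0.15 and 0.14 ± 0.085 (adjusted p = 0.497 and 0.424).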

How the data were processed

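Bulk RNA of aPVT tissue was sequenced in 9 libraries, 3 for each of defeat SHNK, defeat saline and no-stress saline, grouped by the labels. Per the labels' protocols, 100 ng of total RNA entered each library, prepared by SMARTer Ultra low and TruSeq chemistry. The authors deposited 1 table of whole-number read counts by gene symbol, not normalized. The submitters' processing notes name the tools Trimmomatic 0.38, HISAT2 and StringTie and the build names GRCm38 and mm10. What each tool did, and whether counting used strand, is not given in the sources used here.

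Genes were kept with filterByExpr in edgeR (minimum count 10, minimum total 15), which kept 18194 and left out 762. After TMM scaling, 1 quasi-likelihood model held all 3 groups (edgeR 4.0.16 glmQLFit and glmQLFTest, R 4.3.3; common biological coefficient of variation 0.132), with Benjamini-Hochberg adjustment over all tested genes and a threshold of 0.05. The standard error is the log2 fold change over the square root of F. CPM carry no prior count. Total counts of 32307869 to 51569143 per library leave the spread between libraries as the main limit on precision, except for genes of under about 1 CPM. Level per kb used the longest protein-coding transcript of the GENCODE M21 basic set, and positions and promoter windows came from RefSeq GRCm38.p6; the row Kcne1l matched by its alias. The pipeline was tested on simulated data.

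The members, subfamilies, partner list and marker lists were chosen with earlier results of these data known. Named genes were every called member, Kcng4, Kcnab1, Kcnc2 and Kcnma1, in each subfamily the 2 highest per length, and 12 genes known from relay neurons, astrocytes or choroid plexus. Kcng1, Kcnh8, Kcna4, Kcnmb2, Kcnt2, Kcnj11, Kcnk6 and the DESeq2 calls were named after their values were seen. Alternatives were DESeq2 1.42.0, limma 3.58.1 voom, other scalings and filters, a fit of the 2 compared groups, a replicate block and leaving out each library. A few of the genes named by this rule are left out of the text. Protein sequences were not used here.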

Additional observations from a re-analysis of the deposited data

How the results depend on the processing

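The named fold changes were computed under 17 alternatives: edgeR with size factors from DESeq2 or with upper-quartile scaling, edgeR unfiltered or at 1 CPM or more in 3 libraries, DESeq2's Wald test, limma voom, a fit of the 2 compared groups, a replicate block, and leaving out each of the 9 libraries. Of 14 called fold changes, members and partners together, 7 kept their call in all 17 (Kcng4 in both comparisons, and Kcnab1, Kcnc2, Kcnip4, Calm2 and Lrrc55 with SHNK), and 0 changed sign. Of 46 that were not called, 29 stayed so in every one of the 17 that gave a value (a stricter filter left out Kcne2), and 1 reversed: Kcnn4 in defeat SHNK against no-stress saline, -0.17, ran from -0.35 to 0.26 when a library was left out and was above 0 without no-stress saline replicate 3, its highest no-stress library at 1.52 CPM.

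DESeq2 called more members than edgeR: with SHNK 9 higher and 7 lower, where edgeR called 5 and 3; in defeat saline against no-stress saline 4 higher and 1 lower (Kcnc2), where edgeR called 2 and 0; in defeat SHNK against no-stress saline 2 higher and 6 lower, and 2 partners higher, where edgeR called 0. Of all tested genes DESeq2 called 11%, 2.59% and 5.46% in these 3 comparisons, where edgeR called 6.41%, 1.17% and 0.0055%. When 1 library was left out, the members called with SHNK ran from 3 to 5 higher and from 1 to 5 lower, those in the stress comparison from 1 to 3 higher and from 0 to 1 lower, and those in defeat SHNK against no-stress saline from 0 to 2 lower. The share of all genes called ran from 0.963% to 7.58%, from 0.219% to 1.68% and from 0% to 4.1%. The partners called higher ran from 1 to 3 with SHNK, from 0 to 1 in the stress comparison and from 0 to 1 in defeat SHNK against no-stress saline. Without defeat SHNK replicate 3, Kcng4 alone stayed among the members lower with SHNK. Vapa missed the threshold in 5 of the 9 fits that left out a library.

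Replicate numbers are shared between groups. Deviations from the group mean had r from -0.19 to 0.21 between same-numbered libraries, and from -0.35 to 0.19 between differently numbered ones. With 3 libraries a group, a weak pairing could not be seen this way. Whether the numbers pair the libraries is not known, and the main fit used no pairing. With the replicate block, 1 member was higher in the stress comparison, Kcng4, and Kcnmb1 missed the threshold (adjusted p = 0.0531). No scaling moved the median of all genes by 0.1 on the log2 scale. Depth limits Kcne2, Kcnrg and Kcnj13, with as few as 2 reads in a library for a member.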
